A study of Mus musculus with 16 samples.

Results

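Small-intestinal crypt epithelium of wild-type C57Bl/6 mice, grown as 3-dimensional organoids, was profiled on microarrays with and without intestinal myofibroblasts in the same well. The arrays titled as crypt co-cultures (animals P28 and P30) were set against those titled as crypt monocultures of the same 2 animals, so 4 of the 16 arrays of the series entered this comparison and the animal code paired them. Both groups are labelled wildtype, male and 8 to 10 weeks old, and carry no transgene, treatment or deletion that the labels name. In co-culture the myofibroblasts had been seeded overnight on a polyester insert with 0.4 µm pores, in medium with 10% serum, and the organoids lay in Matrigel below the insert for 24 h in a basal medium. The labels describe no separate handling of the monocultures, and do not say whether the myofibroblasts came from the animals that gave the organoids. Each animal gave 1 array per condition, so p-values measure the spread between the 2 animals and between 3 fibroblast animals that were cultured in the same 2 ways. The other 12 arrays held myofibroblasts with and without organoids (3 animals each) and adenoma cells of Apc 1638N mice (4 animals), and gave no term of this comparison. The myofibroblast arrays served to estimate that spread and to show levels in fibroblasts. The adenoma arrays entered the spread only in the fit without the pairing. All 16 arrays entered the choice of probe sets and of the genes tested.

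The crypt epithelium of the small intestine renews itself from stem cells at the crypt base. Their progeny divide several times, then differentiate into absorptive enterocytes, which carry digestive enzymes and nutrient transporters, or into secretory goblet, Paneth, enteroendocrine and tuft cells. Myofibroblasts lie under the epithelium, make basement membrane and matrix, and release growth factors and Wnt, BMP and prostaglandin signals. After injury the crypt epithelium can pass through a state in which genes of the fetal gut return, a state that has been tied to the Hippo pathway coactivator YAP.

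Levels are log2 probe set values, so a step of 1 is a 2-fold change, and values are given in the order P28, P30. A gene is called when the adjusted p of its paired limma fit is under 0.05 among 18095 genes, and differences are co-culture minus monoculture, as the mean of both animals ± SE. Medians of the 4 arrays were 3.51 to 3.58, and precision is limited by how few arrays there are. Where conditions are said not to overlap, 2 arrays are set against 2, which separate easily. The genes were chosen by their differences, so this only describes their values. The share of all genes without overlap was not counted. The tissue label was checked on 19 epithelial identity genes, among them Epcam, Cdh1, Vil1 and the intestinal factor Cdx2. Their mean level was 10.25 and 10.38 in monoculture and 10.67 and 10.58 in co-culture, against 4.01 in myofibroblasts alone. The mean of 19 fibroblast and muscle markers was 3.65 and 3.59 in monoculture and 3.58 and 3.50 in co-culture, against 10.30 in myofibroblasts alone. Thus the organoid arrays stayed at the low end of the scale for fibroblast markers with myofibroblasts present: Col1a1, the main fibrillar collagen chain, was at 4.07 and 3.80 without them and at 4.19 and 3.80 with them, and Vim at 5.33 and 5.03 against 5.11 and 4.69. The 1 called member, the collagen VI chain Col6a1, rose from 3.77 and 4.02 to 4.31 and 4.54, against 9.92 in myofibroblasts. Without P28 0 fibroblast markers were higher and 1 was lower, and with both animals 2 were higher and 3 lower at an unadjusted p under 0.05. Of the epithelial identity genes 2 were called higher, Isx and Tjp1, and 1 without P28. Of the 13 tested immune cell markers 2 were called higher, the macrophage gene Cd68 (3.98 and 4.20 to 5.24 and 5.01) and Laptm5 (2.58 and 1.80 to 3.50 and 3.40). Without P28 0 of them were called, and with both animals 3 were higher and 1 lower at an unadjusted p under 0.05. Rises made up 10.5% of the epithelial, 5.26% of the fibroblast and muscle and 15.4% of the immune lists, against 6.51% of all genes. Immune markers averaged 3.91 and 3.71 in monoculture, 3.95 and 3.87 in co-culture and 7.91 in the myofibroblast cultures. Their part in the results was not tested. All arrays are labelled male, but both arrays of P28 had the X-inactivation transcript Xist at 8.04 and 7.57 and the Y-linked Eif2s3y at 3.05 and 2.89, whereas those of P30 had Xist at 2.81 and 2.30 and Eif2s3y at 8.13 and 8.03. The arrays of P28 thus go against their label, so levels or differences are given in both animals for the genes the results turn on, where the P30 value is the result without P28. Over all called genes the P30 difference was 0.458 to 1.51 times the mean of both animals. Counts of calls are given without P28 where they change by over 1.5 times, and 0 calls are counts in limma.

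**Figure D1:**
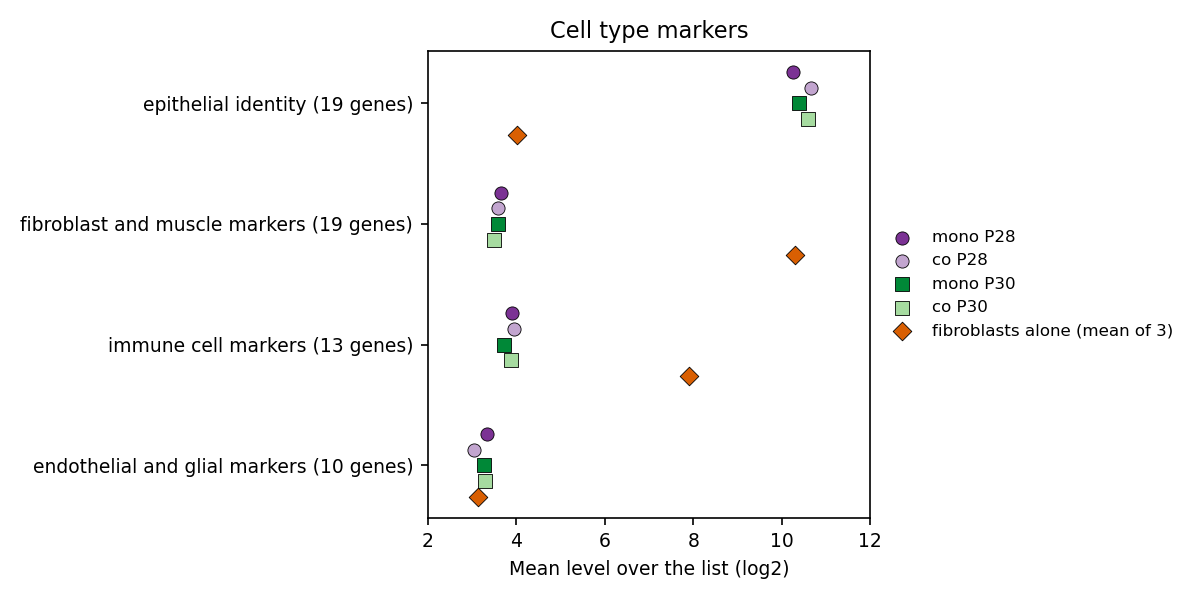
Mean log2 level of 4 lists of cell type markers (rows) in the 4 epithelial arrays (circles P28, squares P30, dark monoculture, light co-culture) and in myofibroblasts alone (diamond, mean of 3 animals). Fibroblast and muscle markers lie at 3.50 to 3.65 in the epithelial arrays of both conditions, against 10.30 in myofibroblasts.

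Organoids with myofibroblasts in the well differed from organoids alone in 10.6% of the tested genes. In co-culture 1178 genes were called higher (6.51% of those tested) and 744 lower (4.11%). The rises were larger than the falls: 75 genes rose by a mean of at least 2 and 7 fell by as much, and 402 rises and 141 falls reached 1 in each animal. The genes that fell started at a higher level, with a median of 7.32 in monoculture, than those that rose, with 5.73, and the median over all genes was 5.02. Of the genes called higher, 77.2% had a higher mean in myofibroblasts than in organoids alone, against 48.6% of all genes tested, while the mean of the fibroblast markers was as given above. In bulk cultures a change in the number of cells of a type and a change in RNA per cell cannot be told apart.

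The 2 animals can be set side by side. Of all tested genes 68.0% had the same sign in both, where 49.5% were positive in P28 and 47.5% in P30. Each of the 1922 called genes had the same sign in both, which the choice of genes by the mean of both differences favours. Over genes, which are not independent replicates, the differences of P28 and P30 had a Pearson correlation of 0.61. Called rises had a median of 1.03 in P28 and 0.92 in P30, and called falls a median of -0.85 and -0.81. A fit of the 5 groups without the pairing gave 490 rises (2.71%) and 239 falls (1.32%). Of these 475 and 224 were also called in the paired fit. Its spread was pooled over all groups, adenomas among them, so the 2 fits differ in more than the pairing. Without P28, which leaves 1 epithelial pair whose spread is assumed to equal that of the fibroblast pairs, 177 rises and 37 falls were called, and without P30 411 and 124.

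**Figure D2:**
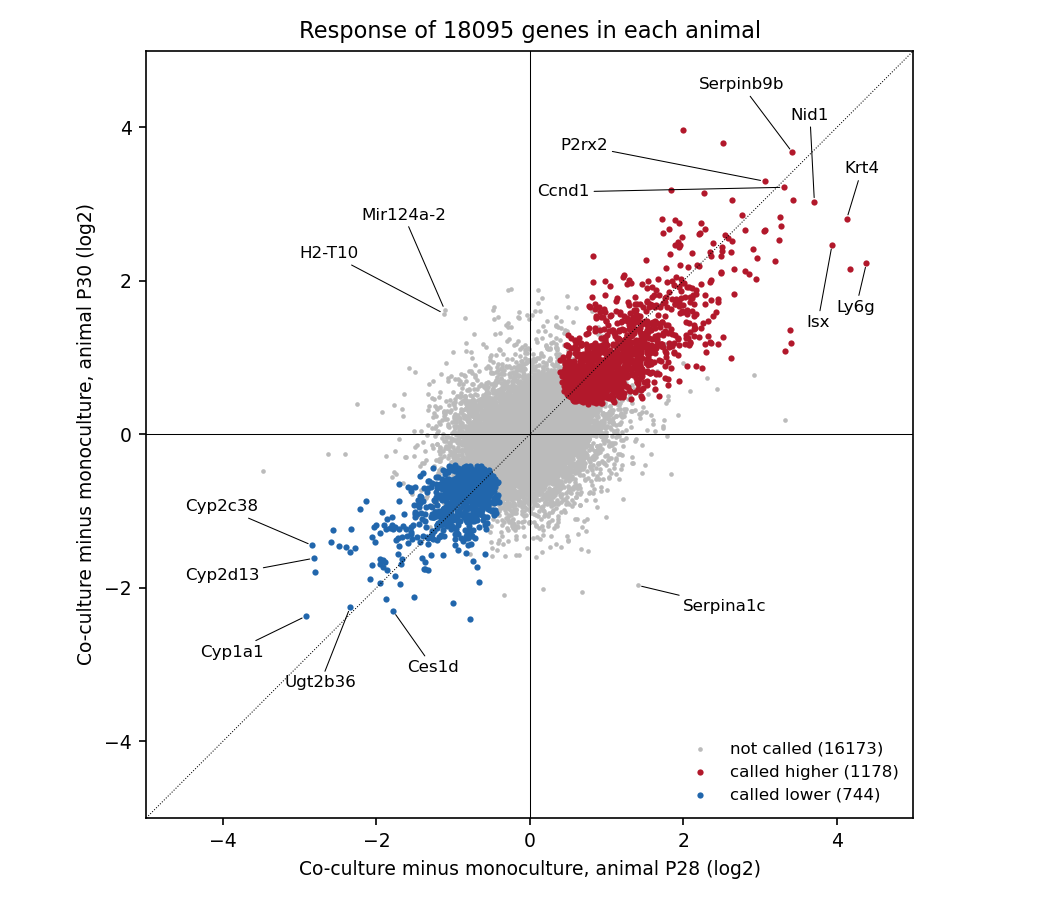
Difference between co-culture and monoculture (log2) in animal P28 (x axis) and in animal P30 (y axis) for each of 18095 tested genes, with called rises in red, called falls in blue and other genes in grey. The 1178 rises and 744 falls, chosen on both animals, lie in the quadrants of equal sign, with Ccnd1 and Ugt2b36 close to the dotted line of equal response and Serpina1c, H2-T10 and Mir124a-2 in opposite quadrants.

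The largest rises were seen in genes of quite different roles. Krt4, a keratin of stratified epithelia such as that of the oesophagus, was at 5.52 and 6.88 in monoculture and at 9.65 and 9.68 in co-culture. Both co-cultures lay above both monocultures, and the difference was 3.47 ± 0.29, or 11.1-fold (adjusted p = 0.00216). Nid1, a basement membrane protein that links laminin to collagen IV, was at 5.36 and 5.23 against 9.07 and 8.26, a rise of 3.37 ± 0.18, with 3.07 at its other probe set. Serpinb9b, an intracellular serine protease inhibitor, rose from 5.11 and 5.58 to 8.53 and 9.25. Its rise of 3.55 ± 0.19 was not matched in size by its other probe set, which differed by 1.10. Ccnd1, the D-type cyclin that drives cells through G1, was at 6.01 and 6.70 without and at 9.32 and 9.92 with myofibroblasts. It had nearly equal rises of 3.31 and 3.22 in the 2 animals (adjusted p = 0.00134).

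Some large rises were called in the paired fit but not in the fit without the pairing, whose spread was pooled over all groups, adenomas included. Isx, an intestine-restricted homeobox repressor, was at 5.74 and 6.92 in monoculture and 9.68 and 9.38 in co-culture. The groups did not overlap, and the paired difference was 3.20 ± 0.35 (adjusted p = 0.00439), but the adjusted p was 0.24 without the pairing. Mucl3 rose from 2.83 and 3.92 to 6.25 and 6.97, and P2rx2, an ATP-gated ion channel, from 3.58 and 4.07 to 6.64 and 7.37. Their paired differences were 3.24 ± 0.16 and 3.18 ± 0.15, and their adjusted p without the pairing 0.501 and 0.256. Among genes already bright in monoculture, Clca3b went from 9.29 and 8.99 to 11.92 and 11.51, a rise of 2.58 ± 0.24. It also had a high adjusted p without the pairing (0.517). Its SD was 0.22 in monoculture and 0.29 in co-culture, while the SE in that pooled fit was 1.71. Tubb5, a beta-tubulin, went from 8.73 and 9.26 to 10.71 and 11.13 (adjusted p = 0.00139, and 0.00041 without the pairing). The actin crosslinker Actn1, the membrane protein Emp1 and the chemokine Cxcl16 had monoculture levels of 9.37 to 11.14 and rose by 1.27 ± 0.13, 1.05 ± 0.15 and 1.36 ± 0.14.

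**Figure D3:**
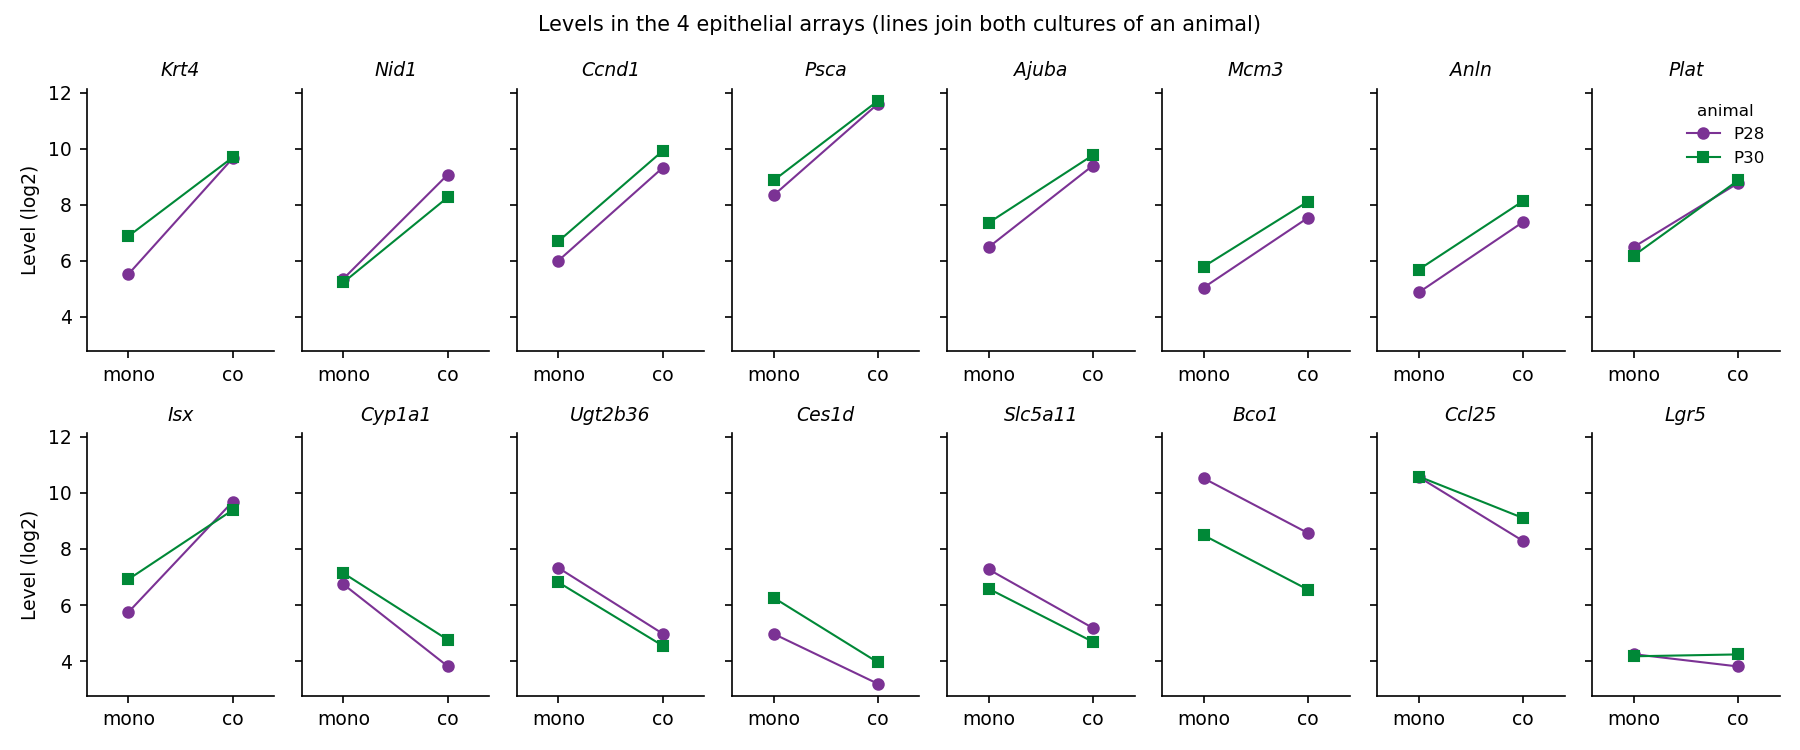
Log2 level of 16 genes in monoculture (mono) and co-culture (co), with a line for each animal (circles P28, squares P30). Krt4 to Plat and Isx lie higher in both co-cultures, Cyp1a1 to Ccl25 lie lower in the co-culture of each animal, and Lgr5 stays between 3.81 and 4.25.

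Genes of the fetal and regenerating gut epithelium made one of the groups with the most calls. Of 23 tested members 15 rose, or 65.2% against 6.51% of all genes, and the median difference over members was 1.25 (1.53 in P28 and 0.97 in P30) against -0.02 over all genes. Psca, a GPI-anchored surface protein of the Ly6 family, was at 8.33 and 8.86 in monoculture and 11.60 and 11.70 in co-culture. Msln, a surface glycoprotein of mesothelium, was at 6.83 and 7.86 against 9.90 and 10.52. In both genes every co-culture value lay above every monoculture value, and the rises were 3.05 ± 0.18 and 2.86 ± 0.29. The annexins, calcium-dependent membrane-binding proteins, moved by different amounts. Anxa3 rose by 2.66 in P28 and 2.15 in P30, Anxa1 by 2.12 and 1.81 and Anxa5 by 1.45 and 1.29, whereas Anxa2 differed by 0.51 and was not called. Ly6g and the alarmin Il33 were unequal between animals: Ly6g rose by 4.39 in P28 and 2.23 in P30, and Il33 by 1.81 and 2.67. Clu, a secreted chaperone that marks revival stem cells, rose by 1.44 (1.74 and 1.14). The gap junction gene Gja1 and the protease Ctsz differed by -0.45 and -0.46 and were not called. Without P28 the list had 4 calls, and 13 without P30 and without the pairing.

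Proteins of stratified epithelia rose in part. Of 24 tested keratin and cornified envelope genes 8 rose, or 33.3% against 6.51% of all genes, with a median difference of 0.70. Krt80 was at 5.12 and 4.09 in monoculture and 7.63 and 7.89 in co-culture, and Krt23 at 7.95 and 8.21 against 9.48 and 9.57. Krt7, a simple-epithelium keratin of ducts, was already at 9.61 and 9.70 and reached 10.88 and 10.998, with rises of 1.27 and 1.30. The cornified envelope linker Ppl rose by 1.34 ± 0.12. Krt6a, a keratin of wounded skin, differed by 3.32 in P28 and by 0.18 in P30 and was not called, and Krt13, Krt15 and Krt6b lay between -0.20 and 0.00. The count was 4 without the pairing and 3 without P28.

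The plasminogen system, which dissolves fibrin and activates matrix proteases, showed rises of its activator and its receptor. Plat, tissue plasminogen activator, was at 6.49 and 6.19 without and 8.77 and 8.87 with myofibroblasts, and Plaur, the urokinase receptor, at 7.61 and 8.13 against 9.69 and 9.92. Neither gene's groups overlapped, with rises of 2.48 ± 0.16 and 1.94 ± 0.18 (adjusted p = 0.00139 and 0.00271). The ligand of that receptor, Plau, differed by 1.47 in P28 and 0.35 in P30 and was not called. Serpinb5 and the metalloprotease inhibitor Timp2 rose by 1.91 ± 0.15 and 1.50 ± 0.13. In all 9 of 19 tested members rose, or 47.4% against 6.51% of all genes, with a median of 0.85, but 0.35 in P30. The secreted proteases Mmp7, Mmp9, Mmp10 and Mmp13 lay between -0.12 and 0.04.

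Among basement membrane proteins and their receptors 10 of 24 rose, or 41.7% against 6.51% of all genes, with a median of 0.43. The laminin chains that rose were Lama3 (6.02 and 6.37 to 8.45 and 7.96), Lama5 (4.59 and 4.91 to 6.13 and 6.91), Lamb2 (by 1.44 ± 0.18) and Lamc1. The integrin chains were Itgav, by 1.57 and 1.06 although its other probe set differed by 0.07, and Itgb6, Itga2 and Itga6. Collagen IV chains were not called, with Col4a1 at -0.53 and 0.54 in the 2 animals and Col4a2 at 0.22 and 0.26. Nid2, the relative of Nid1, differed by -0.36. Without P28 3 members of the list were called.

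Targets of YAP rose in part. YAP acts through TEAD factors on genes of cell spreading and on its own regulators. Of 23 tested targets 8 rose (34.8% against 6.51% of all genes) and 1, the kinase gene Nuak2, fell (4.35% against 4.11%). The median was 0.38 (0.18 in P28 and 0.71 in P30). The 14 others lay between -0.55 and 1.14. Ajuba, a LIM protein that binds Hippo kinases, was at 6.48 and 7.36 in monoculture and 9.40 and 9.77 in co-culture. Amotl1, a binding partner of YAP, rose by 2.20 in each animal, from 5.31 and 5.06 to 7.51 and 7.26. The secreted matricellular protein Ccn1 rose by 1.74 and 1.72, the phosphatase Ptpn14 by 1.96 and 2.47, and the Arf GTPase regulator Asap1 by 1.72 and 1.18. Its relative Ccn2, tissue factor F3 and Myof were also called, with 1.23 and 2.08, 2.32 and 1.48, and 1.87 and 1.06 in P28 and P30. The targets Ankrd1, Axl and Crim1 differed by 0.35, 0.38 and 0.19 and were not called. The count of rises was 7 without either animal, and without P28 Nuak2 was not called. All 8 of the risen targets had higher levels in myofibroblasts than in organoids alone, but so had 20 of all 23 tested targets. The TEAD motif GGAATG, searched on both strands in the 300 bases around each RefSeq start site (250 before, 50 after, build GRCm38.p6), was in 8 of 16 targets that had such a window, against 14.7% of all 32851 windows and 15.1% of tested genes. It was in 3 of the 6 called targets with a window and in 5 of the 10 others. The stretches of the 3 called targets are given with the motif or its reverse complement CATTCC in capitals.
Ajuba, chr14:54577766-54577885, minus strand: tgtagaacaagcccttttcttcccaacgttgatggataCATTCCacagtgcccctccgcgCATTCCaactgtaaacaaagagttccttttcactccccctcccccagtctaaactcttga
Ccn1, chr3:145650029-145650148, minus strand: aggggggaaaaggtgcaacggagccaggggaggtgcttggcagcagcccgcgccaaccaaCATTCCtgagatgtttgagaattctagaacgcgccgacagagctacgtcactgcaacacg
Ptpn14, chr1:189728062-189728181, plus strand: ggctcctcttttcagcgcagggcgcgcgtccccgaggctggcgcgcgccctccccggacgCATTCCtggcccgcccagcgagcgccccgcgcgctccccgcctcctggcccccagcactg
The 2 matches of Ajuba lie 186 and 164 bases before its start, that of Ccn1 103 and that of Ptpn14 146 bases before. A match is a run of letters and was not tested as a site.

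The AP-1 motif (TGACTCA or TGAGTCA, which are reverse complements) was in 5.2% of all windows and 5.3% of tested genes. It was in 7 of the 16 fetal and repair genes with a window, 3 of 10 called and 4 of 6 not called. Of the keratin and envelope genes 5 of 13 held it, 1 of 4 called and 4 of 9 not called. The called fetal and repair genes that held it are given with the motif in capitals: Il1rn, the interleukin-1 receptor antagonist (rises of 2.09 and 1.19), S100a11, a calcium-binding protein (1.40 and 0.80), and Anxa10 (1.29 and 0.58).
Il1rn, chr2:24336659-24336778, plus strand: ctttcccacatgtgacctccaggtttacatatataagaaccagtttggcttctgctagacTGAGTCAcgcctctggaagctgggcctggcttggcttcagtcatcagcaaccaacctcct
S100a11, chr3:93520376-93520495, plus strand: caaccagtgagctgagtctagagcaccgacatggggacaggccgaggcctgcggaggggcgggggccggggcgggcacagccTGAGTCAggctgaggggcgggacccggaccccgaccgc
Anxa10, chr8:62123194-62123313, minus strand: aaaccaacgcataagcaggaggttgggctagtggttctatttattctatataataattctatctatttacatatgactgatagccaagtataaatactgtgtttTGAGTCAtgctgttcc
The motif lies 141, 38 and 16 bases before the start of these genes. Among all genes called higher it was in 5.8%, and among those called lower in 5.5%.

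Genes of the cell cycle rose at each stage that was listed. Of the 22 tested G1 and S phase regulators 7 rose, or 31.8% against 6.51% of all genes. Besides Ccnd1, the cyclin Ccnd2 rose from 8.35 and 8.27 to 10.55 and 10.88 and its kinase Cdk6 from 6.19 and 7.02 to 8.55 and 9.03. Myc, a transcription factor of growth, went from 7.23 and 7.81 to 9.23 and 9.41. These 3 genes had no overlap between conditions, with rises of 2.41 ± 0.14, 2.19 ± 0.14 and 1.80 ± 0.16. Ccne1, which acts after the D cyclins, rose by 1.28 ± 0.13. The third D cyclin, Ccnd3, and the kinase Cdk4 differed by 0.23 and 0.29, and the inhibitors Cdkn1a, Cdkn1b and Cdkn2a by 0.05, -0.36 and -0.25, none of them called.

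DNA replication genes rose in larger number. Of 36 tested members 19 rose, or 52.8% against 6.51% of all genes. The median was 0.75 (0.72 in P28 and 0.86 in P30), and 35 had a positive difference in both animals. Mcm3, a subunit of the replicative helicase, was at 5.04 and 5.79 in monoculture and 7.53 and 8.11 in co-culture. Rrm1 and Rrm2, the subunits of ribonucleotide reductase, were at 6.48 and 6.80 against 8.16 and 8.62, and at 5.30 and 5.37 against 7.19 and 7.85. Each of the 3 genes was higher in both co-cultures, by 2.40 ± 0.19, 1.75 ± 0.13 and 2.18 ± 0.20, although the other probe set of Rrm2 differed by 0.50. Cdc6, which loads the helicase, rose by 1.51 ± 0.13, and the polymerase subunit Pole by 1.66 ± 0.13 with 0.23 at its other probe set. The clamp Pcna, a standard marker of S phase, differed by 0.09 and 0.12 and was not called, and Cdt1 and Cdc45 by 0.16 and 0.18. Without the pairing the list had 6 calls, and without P28 also 6.

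The promoters of these genes often hold E2F motifs, the binding sequence of the factors that the cyclin D kinases release. The letters TTCGCGC or TTGGCGC or TTCCCGC or TTGCCGC, on either strand, were in 20 of the 30 replication genes that had a window, against 9.6% of all windows and 15.8% of tested genes. They were in 13 of 15 called members and 7 of 15 not called. Among all genes called higher 23.7% of 936 with a window held them, and among those called lower 11.2% of 581. The stretches of the called members Rrm1, Cdc6 and Rrm2 follow, with the match in capitals.
Rrm1, chr7:102441568-102441687, plus strand: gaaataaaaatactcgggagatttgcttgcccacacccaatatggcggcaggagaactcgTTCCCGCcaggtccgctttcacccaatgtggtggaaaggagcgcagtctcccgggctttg
Cdc6, chr11:98907953-98908072, plus strand: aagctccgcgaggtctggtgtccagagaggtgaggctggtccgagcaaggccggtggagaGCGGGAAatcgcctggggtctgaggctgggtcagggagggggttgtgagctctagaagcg
Rrm2, chr12:24708004-24708123, plus strand: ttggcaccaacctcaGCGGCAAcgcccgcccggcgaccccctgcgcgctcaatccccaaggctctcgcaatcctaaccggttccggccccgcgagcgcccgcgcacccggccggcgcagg
The matches lie 67, 138 and 235 bases before the start.

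Of the mitotic genes nearly all rose in the paired fit, and far fewer were called in the fit without the pairing. Of 25 tested members 22 rose, or 88% against 6.51% of all genes. All 25 had a positive difference in both animals, and the lowest difference was 0.66. Anln, the scaffold of the cleavage furrow, was at 4.87 and 5.69 in monoculture and 7.38 and 8.13 in co-culture, a rise of 2.48 ± 0.14. Mki67, the proliferation marker, was at 7.15 and 7.97 against 8.80 and 9.18, and the mitotic kinase gene Cdk1 at 5.47 and 5.97 against 6.85 and 7.34. In both the co-culture of each animal lay above both monocultures. Top2a and Aurkb, a topoisomerase and a kinase of chromosome segregation, rose by 1.53 ± 0.16 and 1.51 ± 0.20. P30 lay above P28 in monoculture for each of these 5 genes. In limma without the pairing, whose spread was pooled over all groups, 1 of the 25 was called (adjusted p for Mki67 = 0.226). The cause of the difference between the 2 fits was not tested. Without P28 1 was called and without P30 6. The median difference was 1.35 in P28 and 1.21 in P30.

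Ribosome biogenesis genes, which make and assemble ribosomal subunits in the nucleolus, rose by smaller amounts. Of 23 tested members 17 rose, or 73.9% against 6.51% of all genes. All 23 were positive in both animals and the range was 0.34 to 1.25. Nop56, a box C/D snoRNP protein, was at 8.15 and 8.16 against 9.32 and 9.51, and Polr1a, the largest subunit of RNA polymerase I, at 6.18 and 6.42 against 7.22 and 7.36. Both rose without overlap of the conditions, by 1.25 ± 0.13 and 0.99 ± 0.13. Wdr12 and Gar1 rose by 0.96 ± 0.13 and 0.92 ± 0.15. Without P28 0 members were called in limma (22 had an unadjusted p under 0.05 with both animals), and 10 without the pairing. Each called member of the replication, mitosis and ribosome lists was at a higher level in myofibroblasts than in organoids alone. That held for most tested members, called or not: 31 of 36, 23 of 25 and 22 of 23.

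Of 13 tested ErbB ligands and receptors 2 rose, or 15.4% against 6.51% of all genes, and the median of the list was 0.05. Egfr, the receptor of EGF, was at 7.40 and 8.05 in monoculture and 9.30 and 9.35 in co-culture, and its ligand Btc at 6.27 and 6.77 against 7.74 and 7.62. Their differences were 1.60 ± 0.19 and 1.16 ± 0.18, and Btc had an adjusted p of 0.417 without the pairing. The ligands Hbegf, Tgfa and Ereg differed by 1.03, 0.55 and -0.35 and the receptors Erbb2 and Erbb3 by -0.15 and -0.49, and none was called. Among MAPK feedback and AP-1 genes, early targets of growth factor signals, 8 of 25 tested rose. That is 32% against 6.51% of all genes, and the median was 0.49. The nuclear receptor Nr4a1 was at 5.49 and 5.67 against 7.77 and 7.36, the AP-1 subunit Fos at 6.46 and 6.67 against 8.23 and 7.76, and the ERK phosphatase Dusp6 at 8.97 and 8.93 against 9.99 and 9.82. None of these 3 genes overlapped between conditions. Jun, the partner of Fos, differed by 0.37 and -0.13. Without P28 0 members of either list were called in limma, where 16 of the 25 MAPK and AP-1 genes and 4 of the 13 ErbB genes had an unadjusted p under 0.05 with both animals.

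Of 20 tested glycolysis and hypoxia genes 4 rose, or 20% against 6.51% of all genes, and the median was 0.03. The count was 2 without the pairing and 0 without P28, and with both animals 5 were higher and 1 lower at an unadjusted p under 0.05. The hexokinase Hk2 was at 6.75 and 6.70 in monoculture and 8.89 and 8.07 in co-culture, and the glucose transporter Slc2a1 at 9.21 and 9.59 against 10.65 and 10.37. They rose by 1.76 ± 0.20 and 1.11 ± 0.18, the latter with 0.26 at its other probe set. Hk1 rose by 1.03 and 0.71 and Pfkfb3, which makes an activator of glycolysis, by 0.58 and 0.96. The later enzymes Gapdh, Pgam1, Pkm and Ldha differed by 0.01, 0.10, 0.04 and -0.16, and the hypoxia targets Vegfa and Car9 by 0.02 and -0.64, none called.

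Cytochrome P450 genes had the largest number of falls among the 38 lists. These monooxygenases oxidise drugs, dietary compounds and fatty acids. Of 58 tested members of families 1 to 4, 21 fell and 1, Cyp4a29, rose. That is 36.2% lower against 4.11% of all genes, and the median was -0.51 (-0.69 in P28 and -0.44 in P30). Cyp1a1, which the aryl hydrocarbon receptor induces, was at 6.74 and 7.14 in monoculture and 3.82 and 4.76 in co-culture. It fell by 2.65 ± 0.16, or 6.26-fold (adjusted p = 0.00136), and the conditions did not overlap. The bright Cyp2j6 was at 11.30 and 11.39 against 10.02 and 10.09. Its relatives Cyp2j9 and Cyp2j5 had differences of -1.69 and -1.95 and of -1.87 and -2.15 in P28 and P30, whereas Cyp2j12 and Cyp2j13 differed by -0.12 and -0.69 and were not called. In the 2c and 2d subfamilies Cyp2c38 differed by -2.84 in P28 and -1.45 in P30, Cyp2d13 by -2.82 and -1.62, and Cyp2c37 by -1.91 and -1.73 from levels of 4.30 and 6.95. Near-identical sequences in these subfamilies can share array probes, so the values of single members are uncertain. Without the pairing 9 falls were called, and without P28 6 falls and 0 rises.

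Other members of the aryl hydrocarbon receptor list did not pass the test. Cyp1a2 and Cyp1b1 differed by -0.31 and -0.54, the repressor Ahrr by -0.11, Tiparp by -0.47, Nqo1 by -0.55 and the receptor Ahr by -0.18. Cyp1a1 was the 1 call among 10, or 10% lower against 4.11% of all genes. Of the 10 members 9 were negative in both animals, and the median was -0.26. At an unadjusted p under 0.05 in the paired limma fit 4 were lower and 0 higher. The core letters of the receptor's response element, GCGTG on either strand, are short and were in 32.4% of windows and 47.8% of tested genes. The stretch of Cyp1a1 before its start is shown as the largest fall of the comparison, with its match, 54 bases before the start, in capitals.
Cyp1a1, chr9:57697493-57697612, plus strand: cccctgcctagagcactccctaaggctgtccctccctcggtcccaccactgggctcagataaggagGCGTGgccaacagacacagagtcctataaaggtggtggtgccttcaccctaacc

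Enzymes that conjugate or hydrolyse foreign compounds fell along with the P450 genes. Of 50 tested glucuronosyl-, glutathione and sulphotransferases and carboxylesterases 13 fell and 2 rose (Ces2f and Gstk1), with a median of -0.52. That is 26% lower and 4% higher, against 4.11% and 6.51% of all genes. Ugt2b36, a glucuronosyltransferase, was at 7.32 and 6.81 in monoculture and 4.98 and 4.55 in co-culture. It fell by 2.30 ± 0.18, with no overlap. Carboxylesterases, which split ester drugs and lipids, made up most of the other falls. Ces1d was at 4.97 and 6.26 against 3.19 and 3.96, Ces1c at 6.99 and 6.85 against 4.97 and 5.45, and Ces3a at 5.14 and 5.06 against 3.19 and 3.43. These 3 fell by 2.04 ± 0.19, 1.72 ± 0.18 and 1.79 ± 0.18, with no overlap between conditions. Ces2f went the other way, from 4.82 and 4.37 to 6.10 and 6.09. Sulphotransferases were not called, with Sult1b1 at -0.63 and Sult1d1 at -0.53. Of the glutathione transferases Gstm6 and Gstt2 fell and Gstk1 rose, whereas Gstp1, at -0.18, and Gsta4, at 0.12, were not called. The count of falls was 8 without the pairing and 4 without P28, and that of rises 0 and 1. These gene clusters hold close copies too.

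Nutrient and ion transporters had the lowest median of the 38 lists, -0.70 (-0.66 and -0.63). Of 32 tested members 13 were lower, 1 was higher and 28 were negative in both animals. That is 40.6% lower and 3.1% higher, against 4.11% and 6.51% of all genes. The sodium-coupled inositol transporter Slc5a11 was at 7.27 and 6.58 in monoculture and 5.18 and 4.69 in co-culture. The apical sodium-proton exchanger Slc9a3 was at 9.86 and 9.42 against 7.46 and 7.95. Both had lower values in each co-culture than in each monoculture, with differences of -1.99 ± 0.22 and -1.93 ± 0.24. The nucleoside transporter Slc28a1 differed by -1.39 and -1.75 and the sulphate transporter Slc13a1 by -1.21 and -1.22, the latter from unequal levels of 8.40 and 9.81 (adjusted p = 0.173 without the pairing). The main glucose transporters Slc5a1 and Slc2a2 differed by -0.55 and -0.51 and were not called, whereas the fructose transporter Slc2a5 fell by 0.97. The 1 transporter that rose was Slc10a2, the ileal bile acid transporter, from 5.21 and 4.20 to 7.27 and 6.12 (adjusted p = 0.0014). Without the pairing 5 falls were called and without P28 2.

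Of the 24 tested brush border genes 6 fell (25% against 4.11% of all genes) and 1 rose (4.17% against 6.51%), with a median of -0.34. The structural members Vil1, Myo7b, Cdhr2, Cdhr5, Eps8 and Pls1 lay between -0.02 and 0.10, with none called. The 6 that fell were the peptidase Mep1a from 5.79 and 5.97 to 4.54 and 4.71, lactase, Lct, from 9.86 and 8.38 to 8.19 and 6.69, trehalase, Treh, with differences of -1.17 and -0.79, Naaladl1 with -0.83 and -1.55, and Enpep and Dpp4. The falls of Lct were 1.67 and 1.69, so the animals differed in level and not in response, and its adjusted p was 0.01 with and 0.104 without the pairing. Of the other digestive enzymes sucrase-isomaltase, Sis, and alkaline phosphatase, Alpi, differed by -0.34 and -0.09 and were not called. Tmigd1 rose, by 0.78 and 1.68. Without P28 0 members were called in limma, and with both animals 10 were lower at an unadjusted p under 0.05.

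**Figure D4:**
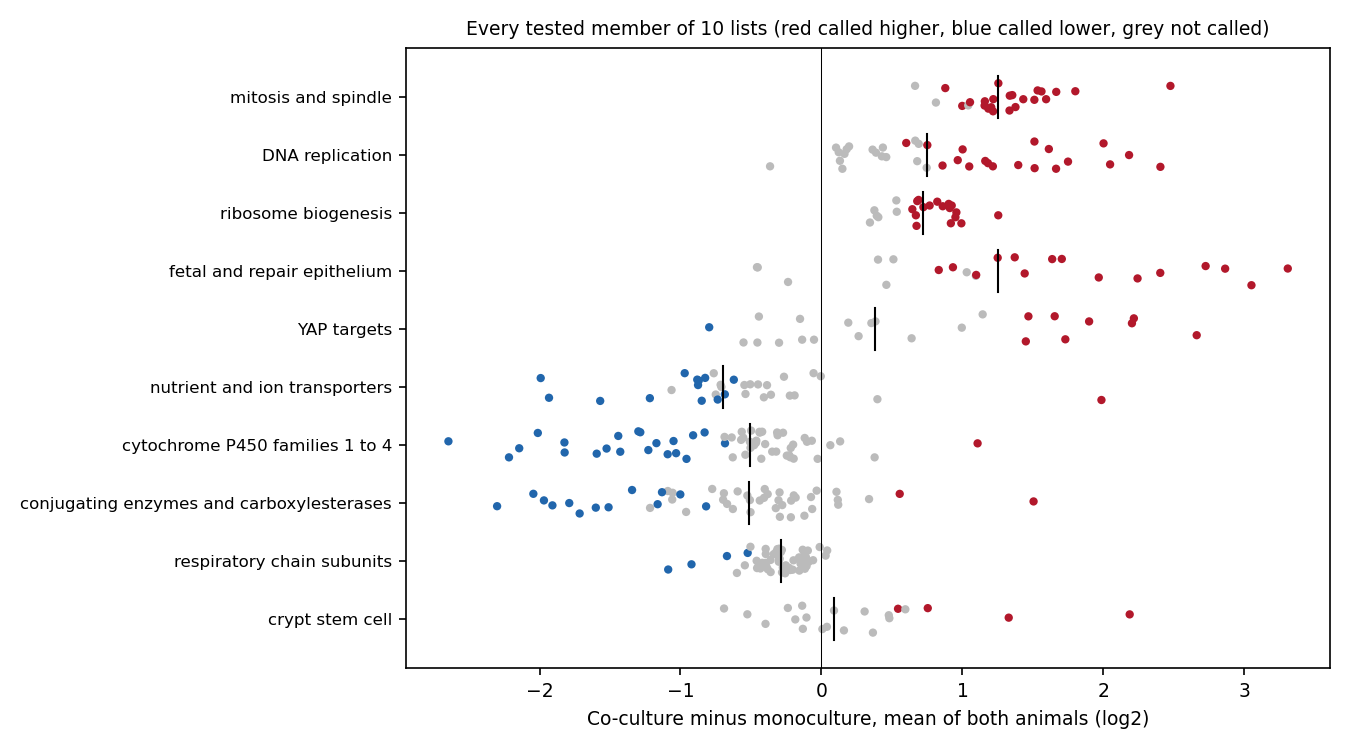
Difference between co-culture and monoculture (log2, mean of both animals) for each tested member of 10 gene lists, in red when called higher, in blue when called lower and in grey otherwise, with the median as a bar. Mitosis genes lie at 0.66 to 2.48, the P450 genes reach -2.65, and respiratory chain subunits crowd around a median of -0.29.

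The rise of Isx stood beside falls of genes that it is known to repress, Bco1 and Scarb1. Bco1, the enzyme that cleaves beta-carotene to retinal, was at 10.52 and 8.49 in monoculture and 8.57 and 6.55 in co-culture. It fell by 1.95 in P28, with a difference of -1.94 in P30 (adjusted p = 0.0034 in the paired fit). The level of P30 without myofibroblasts lay below that of P28 with them, so the groups overlapped. The adjusted p was 0.133 without the pairing. Scarb1, a scavenger receptor that takes up carotenoids and cholesterol, went from 10.99 and 10.64 to 9.32 and 9.30, with no overlap and an adjusted p of 0.0027. The retinol dehydrogenase Rdh10 rose by 1.63 and 1.06, and the alcohol dehydrogenase Adh4, which also acts on retinol, differed by -2.35 and -1.53. A link between these genes was not tested.

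Of 19 tested genes of fat uptake and lipoprotein assembly 6 fell, or 31.6% against 4.11% of all genes, with a median of -0.37. Besides Scarb1 the fatty acid receptor Cd36 fell from 6.38 and 6.95 to 4.94 and 6.01, Apoc3 by 0.87 ± 0.13 and the triglyceride enzyme Dgat1 by 0.53 ± 0.12. The main apolipoproteins Apoa1, Apoa4 and Apob differed by -0.05, -0.06 and -0.09, and Fabp1, the liver-type fatty acid binding protein, by -0.82, not called. Among 20 genes of fatty acid oxidation 6 fell (30% against 4.11% of all genes) and 1, Vnn1, rose (5% against 6.51%). Ppargc1a, a coactivator of mitochondrial biogenesis, was at 8.61 and 7.95 without and 6.54 and 6.62 with myofibroblasts, a fall of 1.70 ± 0.24 (adjusted p = 0.01). Its partner Ppara fell by 0.69 in P28, with a difference of -1.11 in P30, and the peroxisomal enzymes Acaa1b and Ehhadh by 1.53 ± 0.29 and 0.70 ± 0.14. Cpt1a, which admits fatty acids to mitochondria, differed by -0.08. Without P28 the lists had 1 and 0 falls in limma, against 10 and 12 lower at an unadjusted p under 0.05 with both animals.

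Of 55 tested respiratory chain subunits 4 fell and 0 rose in limma, or 7.27% lower against 4.11% of all genes. Of the 55, 47 were negative in both animals and none positive in both. The median was -0.29 (-0.31 in P28 and -0.24 in P30), against -0.02 over all genes, and the called falls were Cox7a1, Ndufb11, Ndufa1 and Ndufa6. Cox7a1, a subunit of cytochrome oxidase, was at 8.50 and 8.30 in monoculture and 7.35 and 7.28 in co-culture, a fall of 1.09 ± 0.15. The other calls fell by 0.92 ± 0.17, 0.67 ± 0.14 and 0.52 ± 0.13. The lowest difference among all 55 was -1.09 and the highest 0.04. Without P28 0 were called in limma, and 20 were lower at an unadjusted p under 0.05 with both animals.

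In the lists of single lineages 6.25% of goblet, 0% of Paneth, 5.56% of enteroendocrine and 15.4% of tuft cell genes were called lower. Of all genes 4.11% were. Rises made up 7.14% of Paneth cell genes and 0% of the other lists, against 6.51% of all genes. Among 16 goblet cell genes the serine protease Tpsg1 was the 1 call, with differences of -0.90 and -0.45, and the mucin Muc2 differed by 0.33 and -0.13. Among 14 Paneth cell genes Nupr1, a stress gene, rose by 0.97 and 0.56, while Lyz1 and the defensin Defa24 differed by -0.14 and -0.10. Enteroendocrine genes had 1 call of 18, the factor Pax4, from 5.12 and 6.10 to 4.57 and 5.12. Tuft cell genes were lower in more members, 11 of 13 in both animals, with a median of -0.37. The leukotriene synthase Ltc4s was at 6.88 and 6.94 in monoculture and 5.21 and 5.31 in co-culture, a fall of 1.65 ± 0.16 (adjusted p = 0.0034, and 0.133 without the pairing), and Rgs13 fell by 0.61 ± 0.14. Dclk1 and Trpm5 differed by -0.27 and -0.25 and were not called. None of these 5 lineage calls was made without the pairing, and without P28 0 members of the 4 lists were called. With both animals 2 goblet, 3 Paneth, 6 enteroendocrine and 6 tuft cell genes were lower at an unadjusted p under 0.05, and 1 goblet and 1 Paneth cell gene higher.

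Lgr5, the marker of crypt base stem cells, was at 4.25 and 4.17 in monoculture and 3.81 and 4.24 in co-culture (adjusted p = 0.574). Olfm4, Ascl2 and Smoc2 differed by 0.48, -0.13 and -0.11, and none was called. Of 21 stem cell list members 4 rose, or 19% against 6.51% of all genes, and 1 without P28, with a median of 0.09. The 4 were Cdk6, Prom1 (8.21 and 8.47 to 9.76 and 9.57), Ephb3 (by 1.04 and 0.47) and the chloride cotransporter Slc12a2 (by 0.56 and 0.53). Of 16 Wnt feedback targets 3 rose, or 18.8% against 6.51% of all genes, and the median was -0.09. The 3 were Ccnd1, Myc and the hyaluronan receptor Cd44, which also belong to other lists. Axin2, Notum and Sp5, which respond most directly to Wnt signals, differed by -0.53, -0.55 and -0.30, not called. In the Notch pathway the receptor Notch2 rose by 1.54 and 0.91, which is 6.67% of the list against 6.51% of all genes. The ligands Dll1 and Dll4 differed by -0.73 and -0.83, and the target Hes1 by 0.17. Of BMP and TGF-beta targets Id4 rose, by 0.98 and 1.24 (7.14% of the list against 6.51% of all genes). Smad6 and Tgfbi fell, with -0.56 and -0.83 and with -0.58 and -0.91 (14.3% against 4.11%). Id1 and Id3 differed by 0.28 and -0.26. Without P28 0 of the 15 Notch and 14 BMP and TGF-beta genes were called, and with both animals 2 and 1 were higher and 4 and 3 lower at an unadjusted p under 0.05. Krt20, a keratin of mature surface cells, was at 12.26 and 12.19 against 12.56 and 12.28 and was not called.

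Of 20 tested genes of inflammatory epithelium 2 rose (10%) and 2 fell (10%), against 6.51% and 4.11% of all genes, and without P28 0 rose and 1 fell. With both animals 4 were higher and 2 lower at an unadjusted p under 0.05. Ccl25, the chemokine that draws lymphocytes to the small intestine, was at 10.56 and 10.58 in monoculture and 8.29 and 9.10 in co-culture, and so fell by 1.88 ± 0.21. Cxcl16 rose, as given above, and Tnf rose by 2.16 in P28 and 0.89 in P30. The immunoglobulin transporter Pigr differed by -0.89 and -0.59, and the neutrophil chemokines Cxcl1 and Cxcl2 differed by -0.97 and 0.00 and by -1.27 and -0.14, not called. Of 10 butyrophilin-like and villus genes Btnl1 and Btnl2, which act on intraepithelial lymphocytes, fell by 0.89 ± 0.13 and 0.66 ± 0.15 together with Ccl25, and without P28 the list had 1 fall. With both animals the 3 falls were 30% of the butyrophilin-like and villus list, against 4.11% of all genes. Among 18 interferon genes 0 were called in limma in either fit, 1 was higher at an unadjusted p under 0.05, and the median was 0.21. In the prostaglandin pathway the exporter Abcc4 rose from 5.69 and 4.89 to 7.34 and 6.78 and the degrading enzyme Hpgd differed by -0.85 and -0.54 (called, but not without P28), while the receptor Ptger4 differed by 0.61 and -0.39. Calls made up 10% of the 10 prostaglandin genes each way, against 6.51% and 4.11% of all genes. Of 18 cholesterol synthesis genes Tm7sf2 and Dhcr7 fell, by 0.85 ± 0.14 and 0.75 ± 0.18, and the median was -0.11. These falls are 11.1% of the list, against 4.11% of all genes. Without P28 0 were called, and with both animals 4 were lower at an unadjusted p under 0.05. Among 15 p53 targets Gtse1 rose by 1.81 and 1.14 and Sesn1 fell by 1.01 ± 0.16. That is 6.67% each way, near the 6.51% and 4.11% of all genes. The classical targets Cdkn1a and Mdm2 differed by 0.05 and 0.08. Without P28 0 p53 targets were called, and with both animals 4 were higher and 2 lower at an unadjusted p under 0.05.

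**Figure D5:**
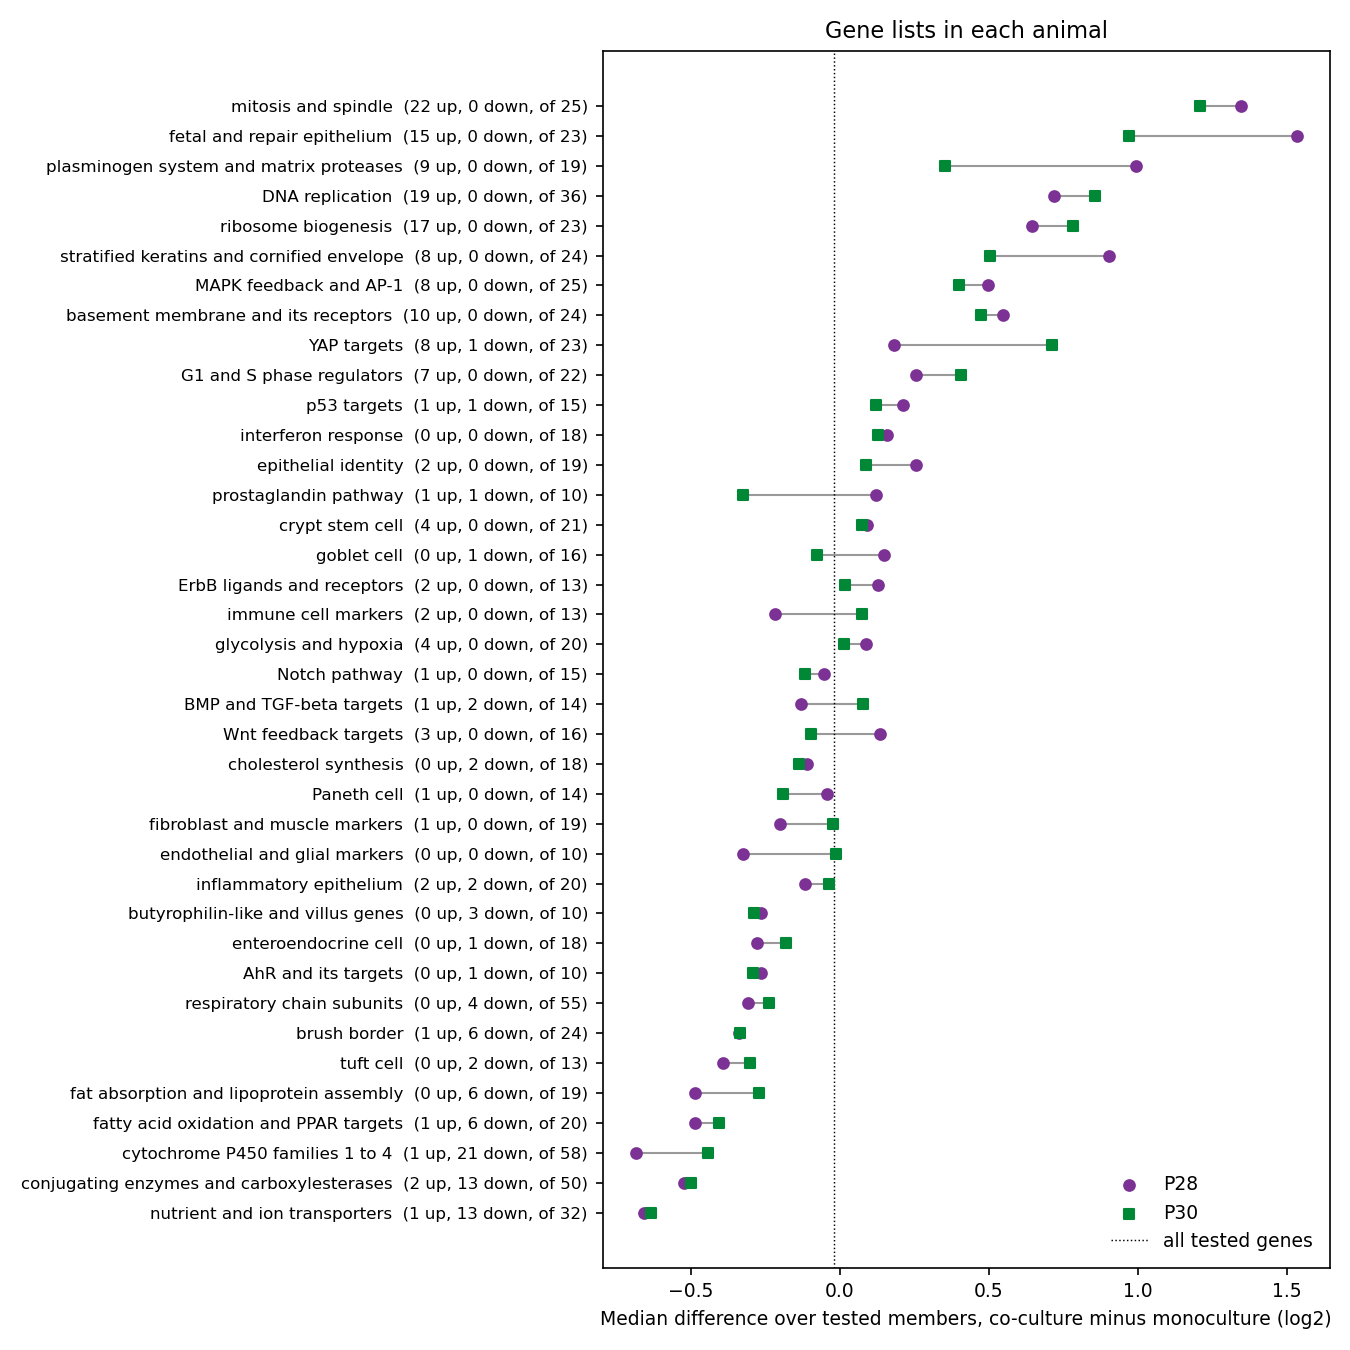
Median difference between co-culture and monoculture (log2) over the tested members of 38 gene lists in P28 (circles) and P30 (squares), with the counts called higher (up) and lower (down) beside each name and the median of all genes as a dotted line. Mitosis, fetal and repair genes lie highest and transporters, conjugating enzymes and P450 genes lowest, and the 5 lists whose symbols fall on both sides of 0 are prostaglandin, goblet cell, immune, BMP and Wnt genes.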

How the data were processed

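The values are log2 probe set levels that the authors deposited for 16 one-colour whole-transcript arrays. Per the submitters' processing notes, RMA produced them. RMA corrects background, equalises the arrays' distributions and summarises probes, so a shift of most transcripts in one direction would not show and low levels are compressed. RMA's version, its library file and the genome build were not given in the sources used here. The labels' protocols state an RNA input of 150 ng per array.

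Technical repeat adenoma arrays were averaged, which left 14 samples of 9 animals. Of 41345 probe sets 23521 had 1 gene symbol, 1814 several and 16010 were unnamed here. Among the probe sets of each of 22180 genes the brightest over all samples was used, and 18095 were tested, those whose highest group mean passed the 30th percentile of probe set means (2.67). limma 3.58.1 (R 4.3.3) fitted the animal as a block with a co-culture term for epithelium and another for fibroblasts, then empirical Bayes, 2-sided tests and Benjamini-Hochberg adjustment over all tested genes. The fit has 3 residual degrees of freedom and 6.61 in all, and assumes that epithelium and fibroblasts vary alike.

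The pairing comes from the animal codes in the titles. Deviations from group means correlated within an animal at 0.33 for epithelium (with 2 animals 1 value serves both) and, among fibroblasts, at 0.62, 0.51 and 0.79. The title of 1 fibroblast array names another animal than its source label, and the title was followed.

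The comparison, the 38 gene lists (803 tested genes), the motifs and the tests were chosen with earlier results of these data known. Named genes are the 15 largest rises and falls of at least 1 in each animal, the 10 brightest each way, up to 5 called members of each list by smallest p, the 6 largest opposite responses, and Lgr5, Epcam, Vim, Col1a1, Acta2, Krt20, Xist and Eif2s3y. Other list members were named after their values were seen. Alternatives were other blocks, samples, filters, scalings, priors, probe set rules and thresholds, and leaving out animals. On simulated data with 200 of 18095 genes changed, the fit recovered 34% of 2-fold changes and 78% of those of 2 on the log2 scale. In it 4 unchanged genes were called. The simulation gave each gene the same spread in every group, so it cannot show whether epithelium and fibroblasts vary alike. It also changed fewer genes than were called in the data. Promoter windows are RefSeq's, build GRCm38.p6, matched by symbol for 13963 tested genes.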

Additional observations from a re-analysis of the deposited data

Results flagged for a closer look

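Several results pointed in opposite directions in the 2 animals, and these differences between animals were not tested. Serpina1c, a serine protease inhibitor, differed by 1.40 in P28 and -1.97 in P30. H2-T10, a class Ib histocompatibility gene, differed by -1.12 and 1.57. The microRNA gene Mir124a-2 differed by -1.11 and 1.62 and Btbd35f2 by -0.999 and 1.07. Aym1 differed by 0.99 and -1.07, and Cd55b by -1.09 and 0.93. None of the 6 was called, and all had levels between 2.42 and 5.34 in the 4 arrays.

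Of the 38 lists 5 had medians on different sides of 0. The prostaglandin list had 0.12 in P28 and -0.33 in P30, goblet cell genes 0.15 and -0.077, and Wnt feedback targets 0.14 and -0.10. BMP and TGF-beta targets had -0.13 and 0.077, and immune cell markers -0.22 and 0.075. Each of these medians is small beside the SD of all genes' differences, 0.54 in P28 and 0.50 in P30.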

How the results depend on the processing

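The counts of 1178 rises and 744 falls changed most with the replicate block and the samples in the fit. Without the replicate block, with the spread pooled over all 5 groups, 490 genes were higher and 239 lower. With the 4 epithelial arrays alone there were 396 and 150 with the block, and 0 and 0 in limma without it, where 3659 genes had an unadjusted p under 0.05. A trended robust prior gave 1804 and 1222, a 2-fold minimum 564 and 217, and an adjusted p under 0.1 gave 1341 falls. Leaving out 1 animal gave 177 to 411 rises and 37 to 124 falls, where the lone pair is assumed to vary like the fibroblast pairs. Leaving out P28 and the fibroblast animal Pl_III, whose arrays also go against their sex label, was added after seeing the data and gave 113 and 15. Other filters, scalings and probe set rules kept both counts within 1.5 times, from 1049 to 1386 rises and from 613 to 886 falls. None of the 150 named genes that were called changed sign under an alternative, but most alternatives could not reverse a sign. Called genes had the same sign in both animals, so leaving out 1 animal keeps it. Another block, prior or threshold leaves the mean difference as it is. Of the 150, 31 lost their call only with the 4 epithelial arrays and no block. Over the 18 lists with rises and no falls, 23 of 371 tested members were lower at an unadjusted p under 0.05. Over the 8 lists with falls and no rises 2 of 159 were higher. The lists were picked for lacking such calls, which favours low counts. Of all 18095 genes 4705 had an unadjusted p under 0.05 in either direction. The cause of the changes in the counts between settings was not tested. With 2 animals, changes under 2-fold are often missed, and levels near 2.67 are compressed.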
